A study of Homo sapiens with 9 samples.

Results

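The collagen hydroxylases and lysyl oxidases described here are 9 genes, chosen by symbol: the prolyl 4-hydroxylase subunits P4HA1, P4HA2 and P4HA3, the lysyl hydroxylases PLOD1, PLOD2 and PLOD3, and the lysyl oxidases LOX, LOXL2 and LOXL4. They are 9 of 60591 symbols in a table of messenger RNA counts, and all 9 passed the filter on low counts that left 15944 genes to test. The counts came from undifferentiated Caco-2 (uCaco-2) cells, a proliferating human colon adenocarcinoma line used as a model of the intestinal epithelium. For 24 h the cells received 300 µM cobalt (II) chloride (CoCl2), 5 µM of the oxyquinoline derivative 4896-3212 (OD), or fresh medium as control, with 3 biological replicates in each condition. The control and CoCl2 media held 0.5% added DMSO, per the labels, whereas 5 µM OD from its 10 mM stock in DMSO brings 0.05%, so whether the vehicle was equal in all conditions is not certain. Both compounds are known inhibitors of the prolyl hydroxylases that mark hypoxia-inducible factor (HIF) for degradation, and the study used them as a chemical model of hypoxia. All libraries come from 1 line grown as a culture of epithelial cells, so no fibroblast, the main collagen producer of the gut wall, belongs to the model.

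Collagen chains are modified in the endoplasmic reticulum before they fold into a triple helix. Prolyl 4-hydroxylase, an enzyme of α subunits encoded by the P4HA genes and a β subunit encoded by P4HB, hydroxylates prolines and so makes the helix stable at body temperature, while the PLOD enzymes hydroxylate lysines. Outside the cell the copper-dependent lysyl oxidases turn lysines and hydroxylysines of collagen and elastin into aldehydes, from which cross-links form. The P4HA and PLOD enzymes belong to the same class of iron- and oxoglutarate-dependent oxygenases as the HIF prolyl hydroxylases, and several genes of these families are long known to respond to low oxygen.

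Total counts were 15998136 to 18298190 in the control libraries, 16286502 to 24209427 with CoCl2 and 16387054 to 19623776 with OD. Levels are given in CPM, each gene's counts relative to a library size that was scaled with TMM factors, which correct for differences in library composition. Those factors were 1.11 to 1.12 in control, 1.14 to 1.15 with OD and 0.770 to 0.795 with CoCl2. With library size alone the median log2 fold change over all genes tested moved from -0.049 to -0.55 for CoCl2 against control. For CoCl2 against OD it moved from -0.054 to -0.60. Large and small differences that involve CoCl2 thus shift with the scaling, and for small ones the call or the direction can change. Of 10 intestinal epithelium markers 9 were tested and CDX1 was at 0 counts in every library; summed marker levels were 11205 to 11723 CPM in control, 13549 to 14506 CPM with CoCl2 and 10608 to 11173 CPM with OD. With CoCl2 7 of the 9 tested were higher at an adjusted p below 0.05 and under the fold threshold, with a median over the 9 of 0.28 (-0.22 with library size alone), and 2 fell: VIL1, which encodes the brush border protein villin (log2 fold change -2.45), and KRT20 (-1.44). With OD 0 were called by edgeR or DESeq2, with 4 higher and 3 lower at an unadjusted edgeR p below 0.05. Of 11 fibroblast markers COL1A2, THY1, DCN, FAP and ACTA2 had at most 3 counts in any library. Others were well above this. PDGFRA had means of 90.3 CPM in control, 82.0 with CoCl2 and 56.7 with OD, and COL1A1 14.4, 10.2 and 21.7 CPM. Summed levels of the list were 114 to 123 CPM in control, 104 to 107 CPM with CoCl2 and 92.1 to 98.6 CPM with OD. Of the 6 tested 1 was higher and 4 lower at an adjusted p below 0.05 with CoCl2. PDGFRB alone was called there (-2.31), and LUM alone with OD, where it rose (1.78). With OD 2 were higher and 2 lower at an adjusted p below 0.05. Among these COL1A1 was at 0.59 and PDGFRA at -0.67, both under the fold threshold. Of 8 immune and endothelial markers PTPRC had at most 3 counts in any library, and the sums were 40.4 to 46.5, 57.8 to 61.8 and 38.7 to 42.1 CPM. LYZ made up most of these sums, with means of 35.9, 51.5 and 34.6 CPM. Of the 4 tested VWF rose with CoCl2 (1.61) and CD14 fell with OD (-1.08). LUM and VWF, below 1 CPM on average, and also PDGFRA, COL1A1 and LYZ, were named after their values were seen. The part of these differences in the results on the 9 genes was not tested. In such bulk libraries fewer cells of a kind and less RNA per cell cannot be told apart.

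A gene was called where edgeR's quasi-likelihood test gave a Benjamini-Hochberg adjusted p below 0.05 over all 15944 genes and the log2 fold change exceeded 1 in size. Each of CoCl2 and OD was compared with the same 3 control libraries. With CoCl2, 4 of the 9 genes were called higher (P4HA1, P4HA2, P4HA3 and PLOD2), against 19.9% of all genes tested, and LOXL4 was called lower, against 23.4%. With OD, 5 of the 9 were called higher (P4HA1, P4HA2, PLOD2, LOX and LOXL2), against 9.09% of all genes, and edgeR and DESeq2 each called 0 lower, against 4.16% of all genes with edgeR; PLOD1, PLOD3 and LOXL4 had adjusted p-values below 0.05 but changes under the fold threshold, and 8 of 9 had an adjusted p below 0.05, as did 65.6% of all genes. Those of PLOD1 and PLOD3 with OD were near the threshold, and several alternatives lifted them above it, up to 0.1099 and 0.253. With CoCl2 all 9 had an adjusted p below 0.05, as did 83.2% of all genes tested. The median log2 fold change of the 9 genes was 0.68 with CoCl2 and 1.68 with OD, beside -0.049 and -0.010 over all genes tested. P4HA1, P4HA2 and PLOD2 are in the set of shared responders that the study drew in part from these libraries, so their calls are not independent evidence of that direction.

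**Figure D1:**
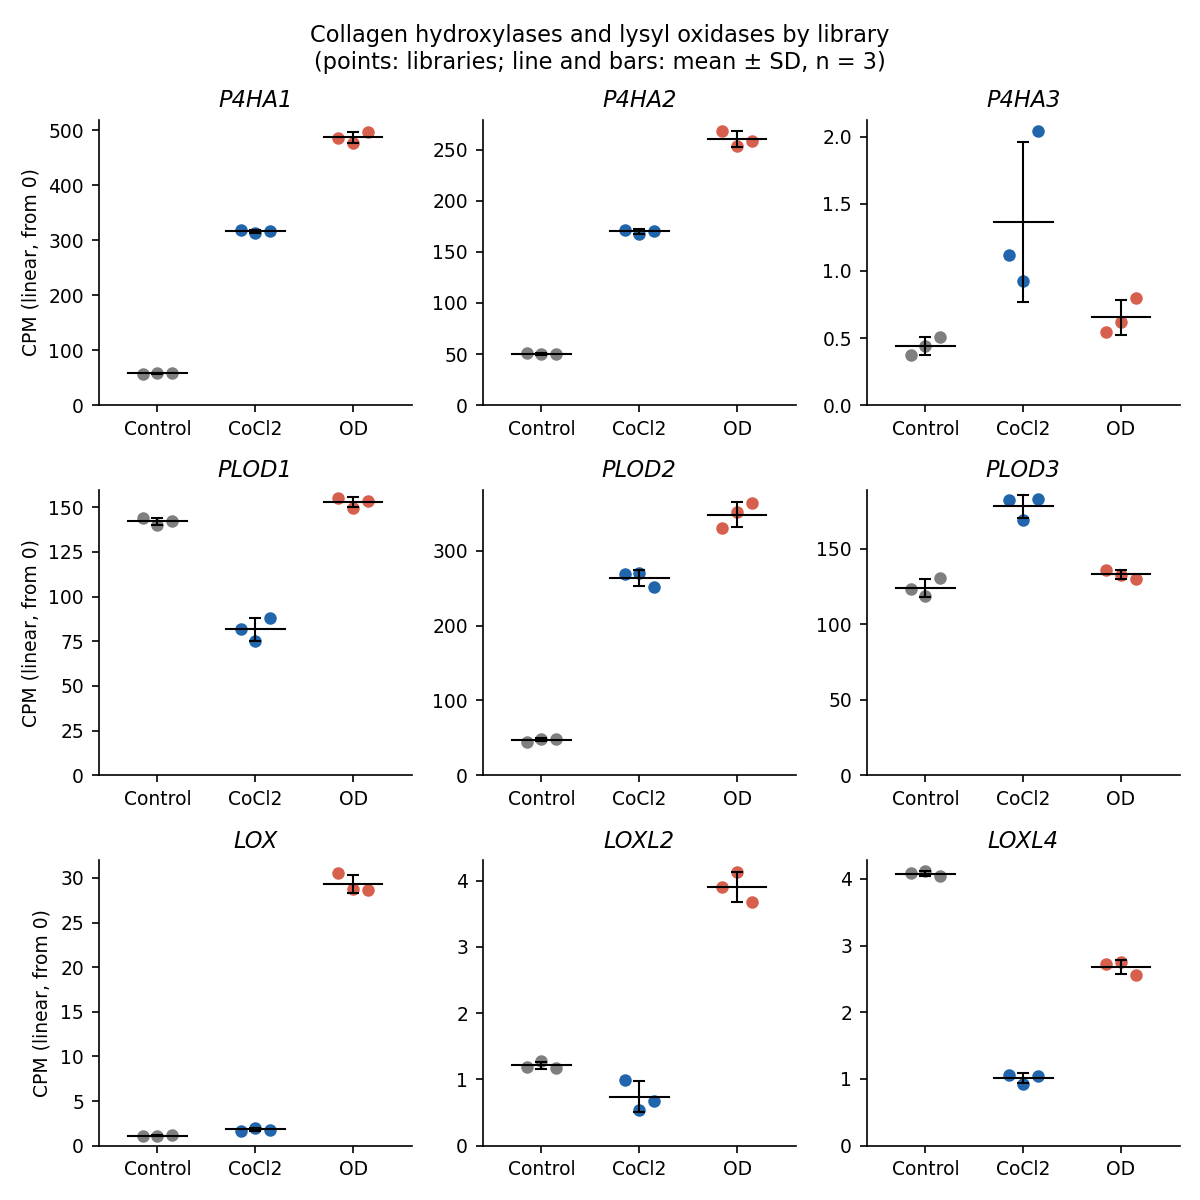
Level of each of the 9 genes in CPM (linear axes from 0, each panel with its own scale) in the 3 libraries of control, CoCl2 and OD; points are libraries, lines and bars the mean and SD (n = 3). P4HA1, P4HA2 and PLOD2 rise in the order control, CoCl2, OD, whereas LOX sits at 1.08 to 2.01 CPM in control and CoCl2 and at 28.7 to 30.5 CPM with OD.

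P4HA1, the main prolyl 4-hydroxylase α subunit in many cell types, lies on the minus strand at chr10:73007217-73096974 (GRCh38). It had 56.1, 58.8 and 58.1 CPM in the control libraries, 319, 314 and 317 CPM with CoCl2 and 487, 477 and 498 CPM with OD. The 3 conditions did not overlap, and the 3 libraries of each lay close together. P4HA1 was 5.49-fold higher with CoCl2 than in control, a log2 fold change of 2.46 (SE 0.0447, adjusted p 2.31e-51), and 8.44-fold higher with OD, a log2 fold change of 3.08 (SE 0.0445, adjusted p 7.85e-56). By p-value the OD change ranked 2 of the 15944 genes, and by log2 fold change 71 from the top. With CoCl2 these ranks were 67 and 680, and the log2 fold change was 1.95 with library size alone.

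P4HA2, an alternative α subunit at chr5:132190147-132295315 on the minus strand, moved in the same order from a similar control level. Its levels were 51.4, 49.8 and 49.9 CPM in control, 172, 168 and 171 CPM with CoCl2 and 269, 253 and 259 CPM with OD. It rose 3.38-fold with CoCl2 (log2 fold change 1.76, SE 0.0469, adjusted p 3.30e-42) and 5.17-fold with OD (2.37, SE 0.0459, adjusted p 6.42e-49). The CoCl2 value was 1.25 with library size alone. For both α subunits the libraries of each condition thus kept apart from those of the other conditions.

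P4HA3, the third and least abundant α subunit, lies at chr11:74235801-74311640 on the minus strand. Its counts were 7, 9 and 9 in control, 18, 12 and 39 with CoCl2, and 12, 14 and 15 with OD. In CPM these were 0.377, 0.441 and 0.505, then 1.12, 0.929 and 2.05, then 0.545, 0.621 and 0.799. The third CoCl2 library stood above the other two, and at these counts each level is imprecise. The change with CoCl2 was 3.20-fold (log2 fold change 1.68, SE 0.342, adjusted p 1.12e-05), and without the third CoCl2 library it was 1.22 on the log2 scale (adjusted p 0.00534). With library size alone it was 1.18. With OD the log2 fold change was 0.55 (SE 0.385, adjusted p 0.206), which did not pass the test.

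The span of P4HA3 meets PPME1 on the opposite strand, with 166 shared exonic bases or 4.16% of its exonic length. PPME1 itself had 2620 to 2853 counts in control, 3816 to 5763 with CoCl2 and 3888 to 4742 with OD, a log2 fold change of 1.07 and 0.55. The library kit keeps the strand, but the strand setting of the counting is not given in the sources used here, and the part of PPME1 reads in the P4HA3 counts was not tested. P4HA2-AS1 and P4HA3-AS1, antisense RNAs to these genes, had at most 2 counts in any library.

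Since levels of different genes can be compared only per length, CPM were divided by the length of each gene's canonical transcript in kilobases. On that scale the 3 α subunit genes summed to 32.3 ± 0.349 CPM per kb in control, 153 ± 1.60 with CoCl2 and 235 ± 4.64 with OD (SD, n = 3), which is 4.75-fold and 7.28-fold the control sum. With library size alone the CoCl2 ratio was 3.35. P4HA1 made up 64.1%, 65.8% and 65.4% of this sum in control, 75.2%, 75.4% and 75.0% with CoCl2, and 75.0%, 75.6% and 76.0% with OD. Its share was 10.1 percentage points higher with CoCl2 and 10.4 higher with OD than in control, each with p = 0.1 in an exact two-sided permutation test, the smallest p that 3 libraries against 3 allow. The difference of CoCl2 minus OD in this share was -0.30 points, with overlapping libraries (exact permutation p = 0.5). These shares do not depend on the scaling of the libraries.

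P4HB, the β subunit, also known as protein disulfide isomerase, was higher by 0.81 on the log2 scale with CoCl2 and 0.82 with OD, below the fold threshold in both. With library size alone the P4HB values were 0.30 and 0.86, so their near equality depends on the scaling. The α subunit sum per 100 P4HB, both in CPM per kb, was 10.1 ± 0.380 in control, 27.4 ± 0.721 with CoCl2 and 41.7 ± 0.524 with OD (SD, n = 3). The libraries of the 3 conditions did not overlap in this ratio. P4HTM, a transmembrane prolyl 4-hydroxylase that is not a collagen enzyme, had log2 fold changes of -0.95 and 0.15 against control, not called, and was called lower with CoCl2 than with OD (-1.10). With upper-quartile factors the CoCl2 value against control was -1.05 and with library size alone -1.45, past the fold threshold.

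The bases before the start of P4HA1 are shown because they hold the letters ACGTG, which with GCGTG form the core that HIF recognises in hypoxia response elements. RefSeq sequences (GRCh38.p14) of the 250 bases before annotated starts were searched for both motifs on both strands; 7 of the 9 genes have such a window and 9 windows were found, none for P4HA3 and LOXL2. Of all 35116 windows 43.21% hold at least 1 of the motifs, and 18.51% hold ACGTG, so a match is common and is given only as a description. P4HA1 has 1 match, on the opposite strand and 84 bases before the start, printed here as the 30 bases on the gene strand at chr10:73096936-73096965 with the match in capitals. This stretch lies within an annotated exon of P4HA1 in GENCODE.

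P4HA1, minus strand: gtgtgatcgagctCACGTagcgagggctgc

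The P4HA2 window, which lies at an internal start of the gene, holds 0 matches. The bases before the outermost GENCODE start of P4HA2 were thus not searched. Whether matches play a part in the response of any gene was not tested.

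**Figure D2:**
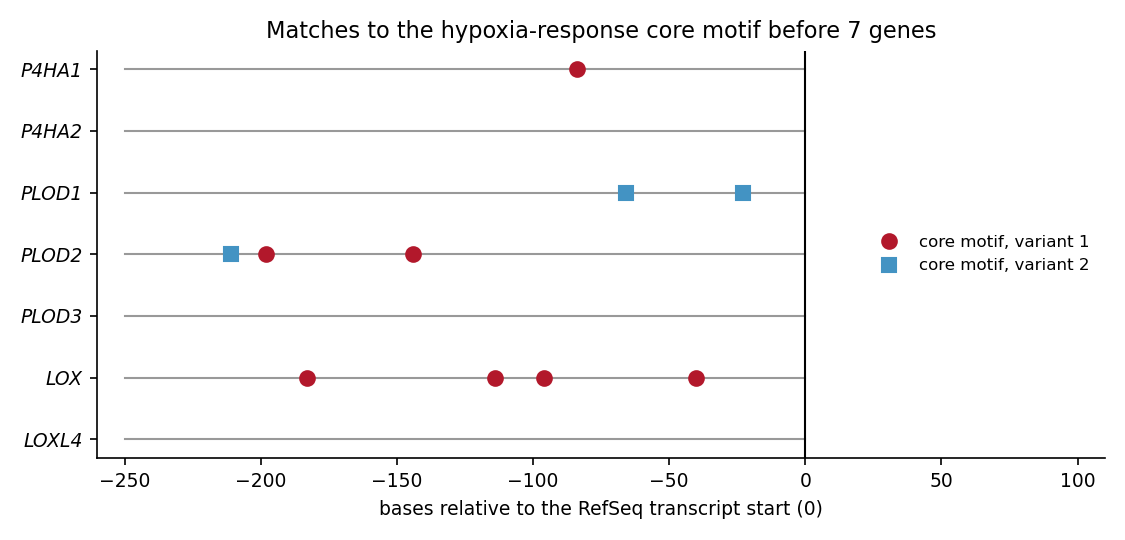
Matches to ACGTG (variant 1, circles) and GCGTG (variant 2, squares) on either strand in the 250 bases before the first RefSeq start of 7 genes; the x axis gives bases relative to the start at 0, each grey line is 1 window. PLOD2 holds 3 matches and LOX 4, while the windows of P4HA2, PLOD3 and LOXL4 hold 0. Those of P4HA2, PLOD1, PLOD2 and PLOD3 lie inside the annotated gene.

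Among the lysyl hydroxylases the 3 genes moved differently. PLOD2 was called higher with both compounds, while PLOD1 and PLOD3 were called with neither. PLOD2 (chr3:146035139-146163725, minus strand) encodes the enzyme that hydroxylates lysines in the collagen telopeptides, the short ends outside the helix where cross-links start. It had 44.9, 49.2 and 49.0 CPM in control, 268, 270 and 251 CPM with CoCl2 and 330, 352 and 363 CPM with OD. All libraries of a condition lay apart from those of the next. The increase was 5.51-fold with CoCl2 (log2 fold change 2.46, SE 0.0489, adjusted p 2.98e-49) and 7.30-fold with OD (2.87, SE 0.0485, adjusted p 4.62e-52). The CoCl2 value was 1.96 with library size alone. The OD change ranked 4 of 15944 genes by p-value and 99 from the top by log2 fold change, and the CoCl2 change 100 and 676.

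The PLOD2 window holds 3 motif matches, GCGTG 211 bases before the start and ACGTG 198 and 144 bases before it. They fall in 2 stretches of 30 bases, at chr3:146161374-146161403 and chr3:146161314-146161343, printed on the gene strand with the matches in capitals. All 250 bases of this window lie within annotated exons of PLOD2, so it too lies at an internal start of its gene.

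PLOD2, stretch 1: agcgctGCGTGagcctccaCACGTagccgc
PLOD2, stretch 2: gcaaacagtccagACGTGgggcccaggagg

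PLOD1, whose enzyme hydroxylates lysines within the helix, lies at chr1:11934205-11975538 on the plus strand. It had 144, 140 and 142 CPM in control, 81.9, 75.3 and 88.0 CPM with CoCl2 and 155, 150 and 154 CPM with OD. The CoCl2 libraries lay below all others, and the OD libraries just above control. The log2 fold change was -0.79 with CoCl2 (SE 0.0479, adjusted p 1.63e-23) and 0.10 with OD (SE 0.0449, adjusted p 0.0363), neither past the fold threshold. With library size alone the CoCl2 value was -1.30 and would be called. Its window, which lies inside the annotated gene, holds GCGTG 66 and 23 bases before the start. The matches are printed on the plus strand at chr1:11934636-11934665 and chr1:11934679-11934708 as those of the other lysyl hydroxylase with matches.

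PLOD1, stretch 1: ggcgcgggggaggGCGTGgaggggcggggt
PLOD1, stretch 2: gggcgggcccagtGCGTGgcagcgggacct

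PLOD3 is a lysyl hydroxylase that also adds sugars to hydroxylysine. It lies at chr7:101205977-101218420 on the minus strand, and its window, also inside the annotated gene, holds 0 matches. Its levels were 123, 119 and 131 CPM in control, 182, 169 and 183 CPM with CoCl2, and 136, 133 and 130 CPM with OD. The OD libraries overlapped the control libraries (exact permutation p = 0.2), and the log2 fold change of 0.099 had an adjusted p of 0.0463. With CoCl2 it was 0.52 (SE 0.0448, adjusted p 1.37e-16), under the fold threshold, and 0.014 (adjusted p 0.763) with library size alone. PLOD3 shares 102 exonic bases with ZNHIT1 on the opposite strand, which had log2 fold changes of 0.63 and -0.44; its part in the PLOD3 counts was not tested.

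Per kilobase of transcript PLOD2 was the smallest of the 3 in control, at 12.7 CPM per kb beside 47.7 for PLOD1 and 44.1 for PLOD3. With CoCl2 it was the largest, at 70.2 beside 27.5 and 63.1, and with OD too, at 92.9 beside 51.3 and 47.2. That rank rests on the canonical transcript, 3749 bases for PLOD2, 2976 for PLOD1 and 2821 for PLOD3. All annotated exons cover 14518, 5320 and 5671 bases, and on that length PLOD2 was the largest with neither compound. As a share of the 3 genes PLOD2 was 11.5%, 12.8% and 12.2% in the control libraries, 43.8%, 45.8% and 41.5% with CoCl2 and 46.7%, 49.1% and 49.8% with OD. The differences from control were 31.5 and 36.4 percentage points, and that of CoCl2 minus OD was -4.84 points, each with the smallest possible exact permutation p of 0.1. The sum of the 3 genes was 105 ± 2.46 CPM per kb in control, 161 ± 3.23 with CoCl2 and 191 ± 3.15 with OD (SD, n = 3), or 1.54-fold and 1.83-fold the control sum. The CoCl2 ratio was 1.08 with library size alone. A long non-coding RNA on the same strand, LNCSRLR, lies within the PLOD2 span without sharing exonic bases, and had 1 to 3 counts in control, 10 to 21 with CoCl2 and 6 to 15 with OD.

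**Figure D3:**
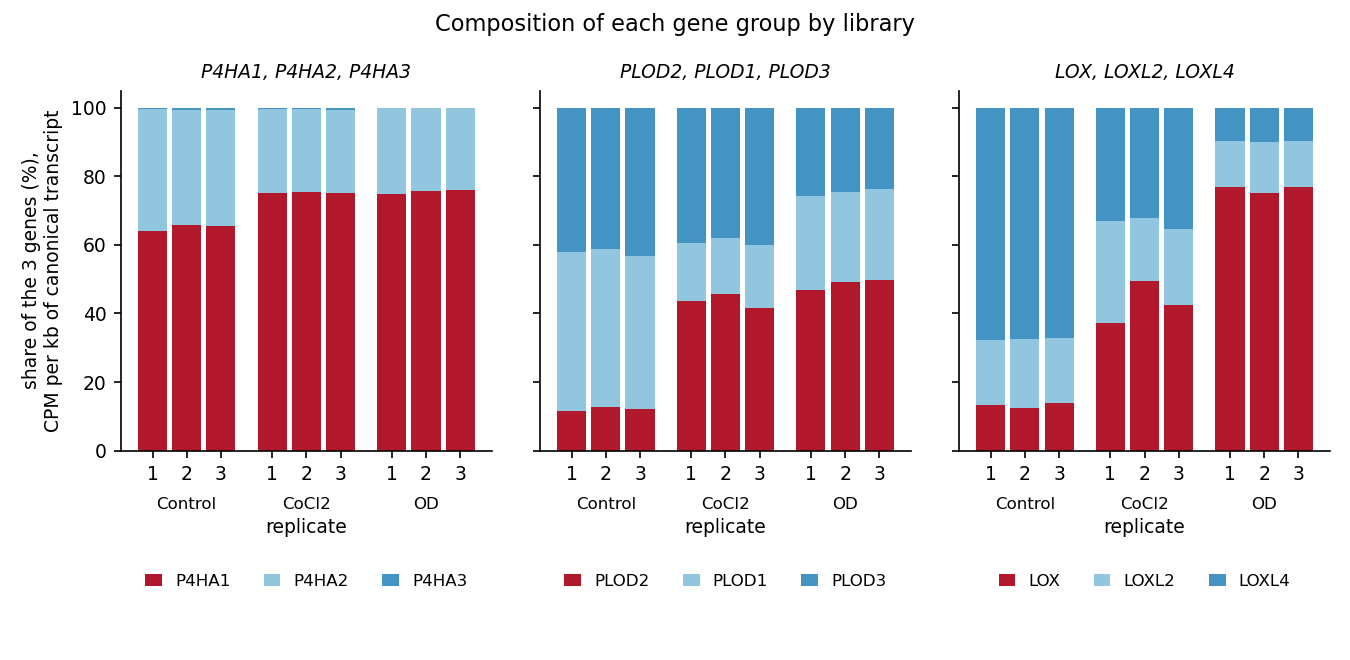
Share (%) of each gene in the sum of its group of 3, in CPM per kb of canonical transcript, for each library by condition and replicate. P4HA1 holds 64.1% to 76.0% in every library, PLOD2 goes from 11.5% to 12.8% in control to 41.5% or more with either compound, and LOX reaches 75.1% to 76.9% with OD only.

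Of the 9 genes the lysyl oxidases differed most between the compounds. LOX, the founding member of the family and a cross-linking enzyme of both collagen and elastin, lies at chr5:122063195-122078413 on the minus strand. Its counts were 21, 22 and 21 in control, 27, 26 and 34 with CoCl2 and 672, 647 and 539 with OD. The levels were 1.13, 1.08 and 1.18 CPM in control, 1.68, 2.01 and 1.78 CPM with CoCl2, and 30.5, 28.7 and 28.7 CPM with OD. The OD libraries stood far above the other 6, and the CoCl2 libraries slightly above control. LOX was 25.9-fold higher with OD than in control (log2 fold change 4.69, SE 0.122, adjusted p 1.15e-41). This ranked 14 from the top of 15944 genes by log2 fold change and 27 by p-value. With CoCl2 the log2 fold change was 0.68 (SE 0.230, adjusted p 0.00568), under the fold threshold, and 0.18 (adjusted p 0.479) with library size alone.

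The first LOX window holds 4 matches to ACGTG, 183, 114, 96 and 40 bases before the start, the most among the 7 genes with a window. The other 2 LOX windows overlap each other and hold the same 2 matches. Those of the first window are printed on the gene strand from chr5:122078428-122078457, chr5:122078350-122078379 and chr5:122078285-122078314, with the matches in capitals. Stretches 2 and 3 lie within annotated exons of LOX.

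LOX, stretch 1: cgctccctgtgcaACGTGtctggggggagg
LOX, stretch 2: cttgCACGTttccaatcgcattACGTGaac
LOX, stretch 3: tgtaactttgcaaACGTGccagaaagttta

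SRFBP1 on the opposite strand shares 138 exonic bases with LOX, 2.47% of the exonic length of LOX. It had 365 to 450 counts in control, 333 to 371 with CoCl2 and 262 to 300 with OD. Its log2 fold changes were 0.027 with CoCl2 and -0.67 with OD, and its part in the LOX counts was not tested.

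LOXL2, which cross-links basement membrane collagen, lies on the minus strand at chr8:23296897-23425328 and was also low. Its counts were 22, 26 and 21 in control, 16, 7 and 13 with CoCl2 and 86, 93 and 69 with OD. These were 1.18, 1.27 and 1.18 CPM, then 0.995, 0.542 and 0.682 CPM, then 3.91, 4.13 and 3.67 CPM. OD lay above control and CoCl2 below it, with no overlap. The rise with OD was 3.21-fold (log2 fold change 1.68, SE 0.194, adjusted p 1.72e-11), while the CoCl2 value was -0.69 (SE 0.293, adjusted p 0.0262), under the fold threshold. With library size alone it was -1.20 and would be called, whereas its adjusted p was 0.112 with DESeq2, 0.0618 without the second control library, 0.102 without the second CoCl2 library and 0.0897 without the third. ENTPD4 on the same strand shares 120 exonic bases, 2.01% of those of LOXL2, and had 2847 to 3363 counts in control, 744 to 1066 with CoCl2 and 2771 to 3299 with OD, so reads of this overlap cannot be assigned by strand. Its log2 fold changes were -1.54 and -0.16, and its part in the LOXL2 counts was not tested.

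LOXL4, at chr10:98247690-98268194 on the minus strand, a lysyl oxidase-like enzyme, was the most abundant of the 3 in control. It had 76, 84 and 72 counts in control, 17, 12 and 20 with CoCl2 and 60, 62 and 48 with OD. In CPM the control libraries were at 4.09, 4.12 and 4.04, the CoCl2 libraries at 1.06, 0.929 and 1.05, and the OD libraries at 2.72, 2.75 and 2.56. Both treated conditions lay below control without overlap. LOXL4 fell with CoCl2 (log2 fold change -1.996, SE 0.205, adjusted p 1.19e-13), a 3.99-fold lower level. The CoCl2 value was -2.50 with library size alone. With OD the log2 fold change was -0.60 (SE 0.155, adjusted p 0.00051), under the fold threshold. Its window holds 0 motif matches.

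Together LOX, LOXL2 and LOXL4 summed to 1.68 ± 0.0150 CPM per kb in control, 0.840 ± 0.0476 with CoCl2 and 7.57 ± 0.236 with OD (SD, n = 3), ratios to control of 0.499 and 4.50. These are low levels beside the P4HA and PLOD sums of the same libraries. The 3 genes are not the whole family, and LOXL3 lies outside the 9 genes. LOXL3 had mean levels of 20.6 CPM in control, 2.19 with CoCl2 and 10.4 with OD, and the sum, ratios and shares here leave it out. LOX made up 13.3%, 12.5% and 13.9% of the sum in control, 37.1%, 49.5% and 42.5% with CoCl2, and 76.9%, 75.1% and 76.9% with OD, whereas LOXL4 went from 67.4% on average in control to 33.5% and 9.84%. The LOX share was 29.8 points above control with CoCl2, and 63.1 points above control with OD, and the difference of CoCl2 minus OD was -33.3 points, each with exact permutation p = 0.1. Over the 9 share comparisons made for the 3 groups of genes the Benjamini-Hochberg adjusted value of each p of 0.1 was 0.1125, so none could pass 0.05 in this design.

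The order of levels per kilobase of canonical transcript differed between the conditions. It depends on the length chosen, as shown for PLOD2 above. In control it ran PLOD1, PLOD3, P4HA1, PLOD2, P4HA2, LOXL4, LOXL2, LOX and P4HA3, from 47.7 to 0.196 CPM per kb, and the libraries of LOX and P4HA3 overlapped. With CoCl2 the order was P4HA1, PLOD2, PLOD3, P4HA2, PLOD1, P4HA3, LOX, LOXL4 and LOXL2, from 115 to 0.199 CPM per kb, with overlap between LOXL4 and LOXL2. With OD it was P4HA1, PLOD2, P4HA2, PLOD1, PLOD3, LOX, LOXL2, LOXL4 and P4HA3, from 178 to 0.290 CPM per kb, and no neighbours overlapped.

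**Figure D4:**
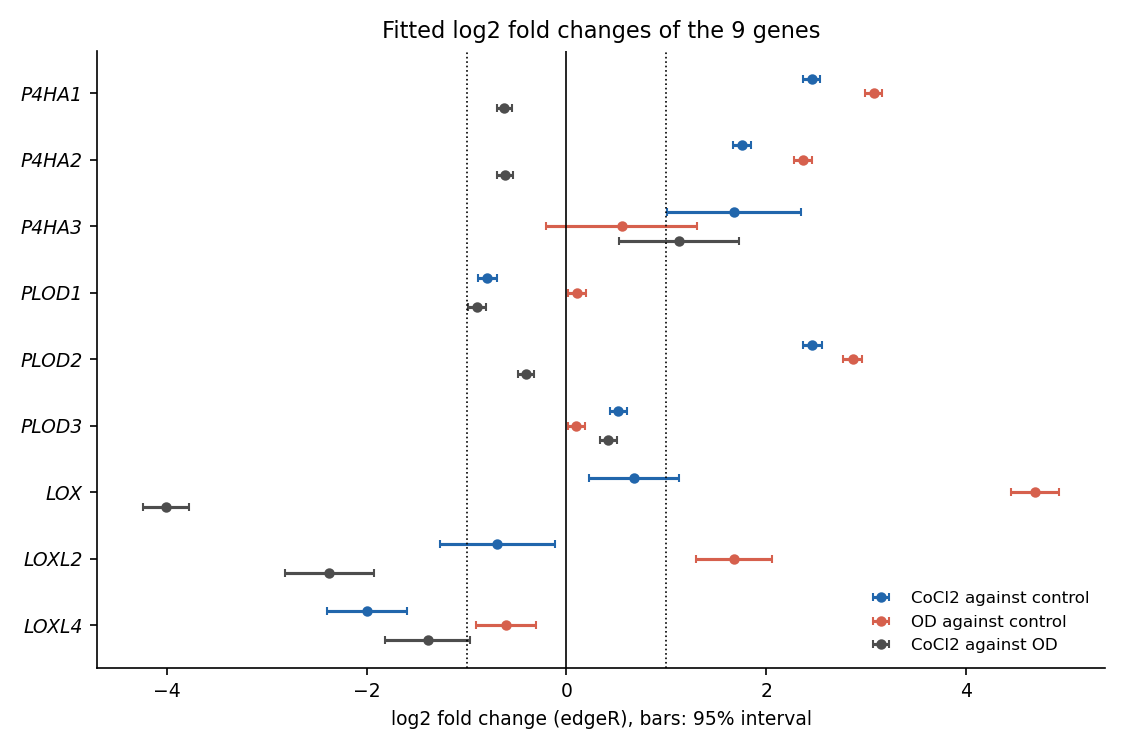
Fitted log2 fold changes (edgeR) of the 9 genes for CoCl2 against control, OD against control and CoCl2 against OD; bars are 95% intervals from the standard error, dotted lines the fold threshold of 1. LOX lies at 0.68 with CoCl2 and 4.69 with OD, and the largest gap between the compounds is that of LOX.

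Compared directly, CoCl2 and OD differed in all 9 genes at an adjusted p below 0.05, as in 83.5% of all genes tested. The fold threshold was passed by P4HA3, higher with CoCl2, against 17.5% of all genes, and by LOX, LOXL2 and LOXL4, lower with CoCl2, against 23.8%. LOX was 16.1-fold lower with CoCl2 than with OD (log2 fold change -4.01, SE 0.117, adjusted p 4.69e-40), LOXL2 5.19-fold lower (-2.38, SE 0.227, adjusted p 8.46e-15) and LOXL4 2.62-fold lower (-1.39, SE 0.219, adjusted p 5.63e-08). The P4HA3 difference of 1.13 (SE 0.306, adjusted p 0.000693) was not called without the third CoCl2 library, where it was 0.67 (adjusted p 0.0897), nor with library size alone, where it was 0.59 (adjusted p 0.0751), nor with upper-quartile factors, where it was 0.997.

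P4HA1, P4HA2 and PLOD2 were lower with CoCl2 than with OD by less than the fold threshold, with log2 differences of -0.62, -0.61 and -0.41 and adjusted p-values of 9.18e-23, 3.11e-21 and 2.09e-13. PLOD1 was at -0.90 and PLOD3 at 0.42, and the PLOD3 difference turned to -0.13 with library size alone. The libraries of the 2 compounds did not overlap in any of the 9 genes, and 83.8% of all genes showed the same. Against control the libraries did not overlap for 9 of 9 genes with CoCl2, against 83.4% of all genes, and for 8 of 9 with OD, against 68.0%. The doses of the 2 compounds differ, 300 µM and 5 µM, so these values describe the conditions used and not equal exposures.

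Other genes of the collagen and elastic fibre pathways were taken from fixed lists, whose counts stand beside 19.9% higher and 23.4% lower of all genes tested with CoCl2, 9.09% and 4.16% with OD, and medians over all genes of -0.049 and -0.010. Of 12 further family members and partners 11 were tested, and 5 fell and 0 rose with CoCl2 while 0 were called with OD; the median log2 fold changes were -0.95 and 0.15. With library size alone 8 fell with CoCl2. By DESeq2 6 fell and 0 rose with CoCl2 and 0 were called with OD, and at an unadjusted edgeR p below 0.05 1 was higher and 10 lower with CoCl2, and 5 higher and 2 lower with OD. LOXL3, a further lysyl oxidase, had means of 20.6 CPM in control, 2.19 with CoCl2 and 10.4 with OD; it fell with CoCl2 (-3.22 on the log2 scale) and was at -0.98 with OD. P3H4, which forms a complex with PLOD1, fell with CoCl2 as well (-3.22) but was at 0.19 with OD. The prolyl 3-hydroxylases P3H2 and P3H3 fell with CoCl2 (-1.59 and -1.44) and were at -0.13 and 0.17 with OD. LOXL1 did not pass the filter, with at most 19 counts in any library.

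Collagen chaperones, export factors and propeptide processing genes made a list of 19, of which 15 were tested. With CoCl2 1 rose and 1 fell, and with OD 0 rose and 1 fell, with medians of 0.19 and 0.27; with CoCl2 3 rose and 1 fell with RLE factors, 1 rose and 3 fell with upper-quartile factors, and 0 rose and 3 fell with library size alone, where the median was -0.32. DESeq2 also called 0 higher with OD, and 8 were higher with OD at an unadjusted edgeR p below 0.05. FKBP10, a prolyl isomerase needed for lysyl hydroxylation of telopeptides, fell with CoCl2 (-1.84) and was at 0.018 with OD. SEC24D, a coat protein of the vesicles that export procollagen, rose with CoCl2 by 1.19, though by 0.69 with library size alone, and was at 0.75 with OD. TLL1, a propeptide-cleaving protease, fell with OD (-1.12) and was at -0.98 with CoCl2.

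Of 44 collagen chain genes 24 were tested, and with CoCl2 1 rose and 10 fell while with OD 7 rose and 2 fell, with medians of -0.67 and 0.27. With library size alone 1 rose and 13 fell with CoCl2, and the median was -1.17. COL17A1, a transmembrane collagen of epithelial cells, rose with both, by 1.77 (SE 0.294) and 2.66 (SE 0.246). Its mean in control was low, at 0.515 CPM, with at most 12 counts in a control library. COL27A1, a fibrillar chain, fell with CoCl2 (-2.26) and was at 0.64 with OD. COL26A1 fell with both (-2.08 and -1.42). COL4A5, a basement membrane chain, fell with CoCl2 (-1.68) and was at -0.13 with OD.

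Of 16 elastic fibre genes 11 were tested, and 2 rose and 2 fell with CoCl2 while 3 rose and 0 fell with OD, with medians of -0.019 and 0.58. With CoCl2 and library size alone 1 rose and 3 fell, and the median was -0.52. With OD 10 were higher and 0 lower at an unadjusted edgeR p below 0.05, and DESeq2 called 2 higher and 0 lower. MFAP2, a microfibril protein, fell with CoCl2 (-2.14, SE 0.403) and was at 0.62 with OD. Its means were low, at 1.12 CPM in control and 0.273 with CoCl2. LTBP1, which anchors latent TGF-β, fell with CoCl2 (-1.96) and was at 0.054 with OD. LTBP2, with a mean of only 1.00 CPM in control, rose with CoCl2 by 1.25 (SE 0.250), though by 0.75 with library size alone. It was at 0.58 with OD. FBLN5, which helps LOX-family enzymes act on elastin, rose with OD by 1.25 and was at 0.41 with CoCl2.

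All 9 genes of copper and ascorbate supply were tested, since lysyl oxidases carry copper and the hydroxylases need ascorbate; 3 rose and 2 fell with CoCl2 and 0 were called with OD, with medians of -0.17 and 0.19. DESeq2 called 0 with OD, where 4 were higher and 3 lower at an unadjusted edgeR p below 0.05; with library size alone 1 rose and 4 fell with CoCl2. ATP7A, which pumps copper into the secretory pathway where lysyl oxidases receive it, rose with CoCl2 by 1.64 and was at 0.81 with OD. SLC31A1, the main copper importer, was at 1.11 and 0.92, and its call with CoCl2 was lost with library size alone (0.61). The ascorbate transporters SLC23A2 and SLC23A1 fell with CoCl2 (-1.84 and -1.06) and were at 0.085 and -0.96 with OD.

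Of 14 collagen degradation genes 11 were tested, and with CoCl2 3 rose and 3 fell, with OD 2 rose and 1 fell, with medians of 0.21 and 0.54; with library size alone 2 rose and 4 fell with CoCl2, and the median was -0.30. MMP13, an interstitial collagenase, had 0 counts in all control libraries, 53 to 77 with CoCl2 and 0 to 2 with OD, and was at least 25.4-fold higher with CoCl2 against a floor of 3 counts per control library. MRC2, a collagen uptake receptor, fell with both (-2.42 and -1.44). PRODH, which degrades proline, fell with CoCl2 (-2.22) and rose with OD (1.49). CTSL, a lysosomal protease, rose with CoCl2 by 1.62 and was at 0.54 with OD.

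**Figure D5:**
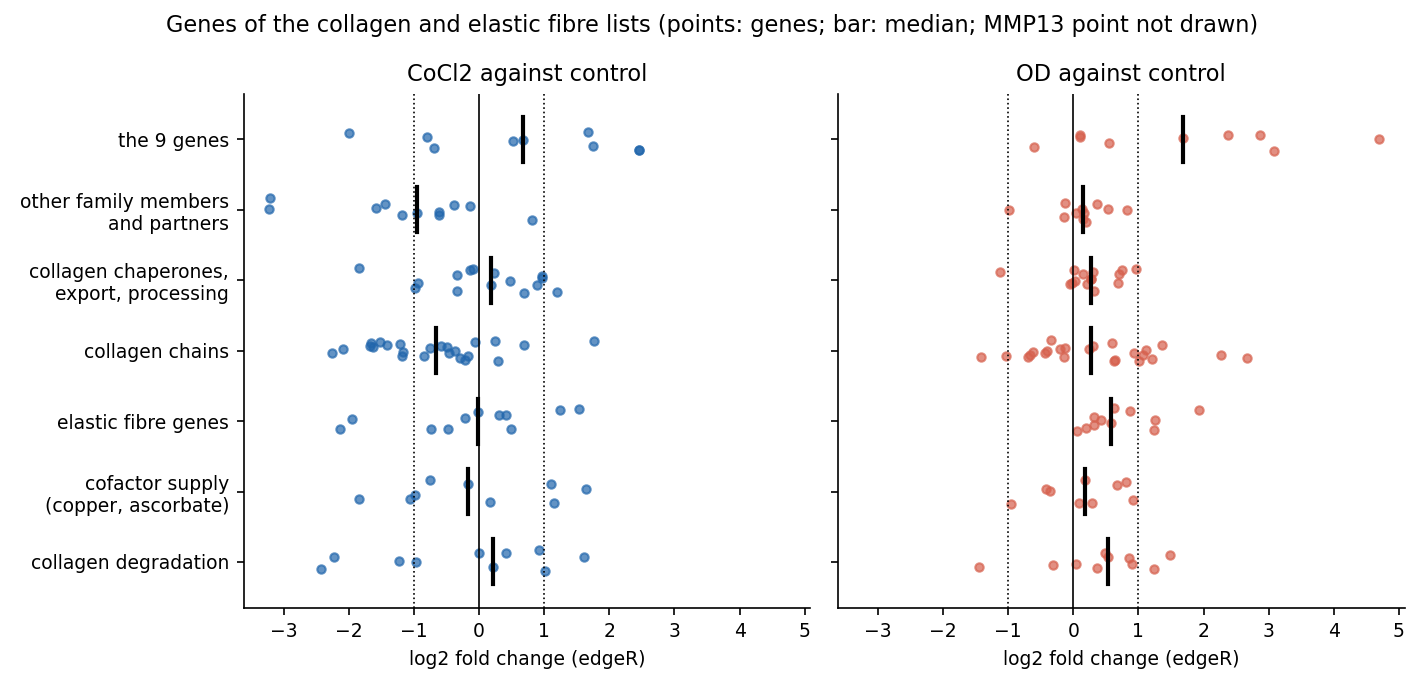
Fitted log2 fold changes (edgeR) of the 9 genes and of the tested genes of 6 pathway lists, for CoCl2 against control and OD against control; points are genes, black bars medians, dotted lines the fold threshold of 1. Medians of the 9 genes are 0.68 and 1.68, those of the other family members and partners -0.95 and 0.15; the point of MMP13, which had 0 counts in control, is not drawn but counts in its median.

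The genes most like P4HA1, P4HA2 and PLOD2, the 3 genes called with both compounds, were found by the Euclidean distance between profiles of log2 CPM over the 9 libraries, each profile minus its control mean, among 15943 other genes. The closest to P4HA1 was PLOD2 (distance 0.390), followed by PDK1, a kinase that inhibits pyruvate dehydrogenase (0.396), and BHLHE40, a transcriptional repressor (0.455). PLOD2 in turn had P4HA1 as its closest gene, then FAM13A-AS1 (0.496) and PANX2, a pannexin channel gene (0.507). For P4HA2 they were INSIG2, a sterol-regulated membrane protein of the endoplasmic reticulum (0.316), JAKMIP3 (0.435) and TMCC3 (0.499). PDK1 had log2 fold changes of 2.39 with CoCl2 and 3.26 with OD, and INSIG2 1.74 and 2.30. P4HA2 lay at 1.73 from P4HA1 on this scale and at 1.52 from PLOD2, and LOX at 4.08 from P4HA1. These distances share all 9 libraries and are descriptions.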

How the data were processed

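The authors checked reads with FastQC 0.11.9, trimmed them with cutadapt 2.10 and mapped them with STAR 2.7.5b (versions per the submitters' processing notes) on GRCh38.p13; the counting tool and its strand setting are not given in the sources used here. The deposited values are raw counts per gene symbol for the 9 libraries, and 0 sample columns were left unused. The labels name no day or batch that a replicate number shares. Libraries of a condition differed by 1.82 to 3.32 times the variance that sampling alone gives.

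TMM factors, a robust quasi-likelihood model of all 9 libraries and its 3 comparisons were computed here with edgeR 4.0.16 under R 4.3.3. The thresholds are those of the study, which used DESeq2; DESeq2 1.42.0 was an alternative, beside other scaling, filters, fold thresholds, a replicate block and libraries left out. The fit was checked on simulated data with far fewer changed genes than the CoCl2 comparison, so this did not test the scaling. Positions, overlaps and canonical transcript lengths came from GENCODE release 44, the windows from RefSeq. The 9 genes and the lists were chosen with earlier results of these data known. Beside the 9 genes, the text names per list up to 4 called genes of at least 1 CPM on average by size of change, P4HB, P4HTM, LOXL1 and LOXL3, overlapping genes and the 3 nearest profiles. No molecular identifiers marked PCR copies, so limits set by counts hold for counting error alone.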

Additional observations from a re-analysis of the deposited data

How the results depend on the processing

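Of 432 values of the 9 genes' log2 fold changes under the alternatives, 422 kept their direction and whether the gene was called, 3 lost a call, 6 gained one and 1 turned. The adjusted p alone moved from below to above 0.05 in 18 values and the other way in 0; 16 of the 18 were of changes already under the fold threshold, those of LOXL2, LOX and PLOD3 with CoCl2 and of PLOD1 and PLOD3 with OD. The turned value was PLOD3 for CoCl2 against OD, -0.13 with library size alone. The 3 lost calls were those of P4HA3 between the compounds given above. The calls gained with library size alone were PLOD1 (-1.30) and LOXL2 (-1.20) for CoCl2 against control, and P4HA1 (-1.17), P4HA2 (-1.16) and PLOD1 (-1.44) for CoCl2 against OD; PLOD1 was also gained there with upper-quartile factors (-1.03). These factors set the level of the CoCl2 libraries as a whole, and no value here tests which is right.

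The numbers of genes called were 5, 5 and 4 for CoCl2 against control, OD against control and CoCl2 against OD. Without the fold threshold they were 9, 8 and 9. Leaving out each library in turn gave 5 to 5, 5 to 5 and 3 to 4. With the replicate number as a block the counts were 5, 5 and 4. Same-numbered libraries of different conditions correlated at -0.0049 to 0.038 over 9 pairs, and libraries of unlike number at -0.047 to 0.025. No strong pairing by number was thus seen.

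In shares against control, P4HA1 was 11.7 points higher with CoCl2 and 12.0 with OD when counts were not divided by length, and PLOD2 35.2 and 39.7. With the length of all annotated exons, an alternative chosen after seeing the data, P4HA1 was 7.09 and 7.32 points higher, PLOD2 21.6 and 25.2, and LOX with OD 65.8. Leaving out 1 library gave 9.61 to 10.5 (CoCl2) and 9.91 to 10.8 (OD) for P4HA1, 30.5 to 32.6 and 35.7 to 37.3 for PLOD2, and 26.6 to 32.8 and 62.7 to 63.7 for LOX. The low counts of P4HA3, LOX and LOXL2 in control limit the precision of their folds.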
